A study of Mus musculus with 12 samples.

Results

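The 10 genes described here encode the structural proteins of elastic fibres: Eln, Fbn1, Fbn2, Fbln1, Fbln2, Fbln5, Efemp2, Mfap2, Mfap4 and Mfap5. They were taken by symbol, 10 of 22310 gene symbols counted in 12 RNA-seq libraries of mouse satellite cells, the stem cells of skeletal muscle. All 10 passed the filter on low counts that left 13540 genes for testing. The set was chosen by the levels reported here, so its levels and its calls are a description and support nothing further. All mice carried the C57BL/6 strain label, and hindlimb muscle of every group had been injured 3 days earlier with 50 µl of 1.2% BaCl2 spread over about 20 sites, a myotoxic salt that kills fibres and activates satellite cells. The 4 groups were old Hoxa9 knockout (old KO, 22 to 28 months), young Hoxa9 knockout (young KO, 3 to 4 months), old wild type (old WT, 22 to 28 months) and young wild type (young WT, 3 to 4 months), with 3 libraries each. Hoxa9 is a homeobox transcription factor, and the comparisons ask how ageing and its loss alter these cells. The labels give neither the deleted stretch of Hoxa9 nor how the cells were isolated. They do not give the number of animals behind a library, and the p-values below reflect only the variation among the 12 libraries, which may be technical.

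Elastic fibres give stretch and recoil to vessels, skin, lung and the connective tissue sheaths of muscle. A core of elastin, made from the secreted monomer tropoelastin, is laid onto a scaffold of fibrillin microfibrils, guided by fibulins and sealed by lysyl oxidases that cross-link it. The microfibrils also hold latent TGF-beta complexes. In muscle these proteins are usually credited to fibroblasts, smooth muscle and pericytes, and myogenic cells add to the matrix around them.

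Library depth was 4193433 to 20337015 reads in genes. Levels are CPM, the reads of a gene relative to the scaled library size. Hoxa9 itself had 6.46, 4.55 and 6.39 CPM in old KO, 7.21, 5.52 and 6.46 CPM in young KO, 14.7, 15.7 and 22.5 CPM in old WT, and 7.96, 11.4 and 11.5 CPM in young WT. Every KO library was below every WT library, with the highest KO library at 7.21 CPM and the lowest WT library at 7.96 CPM. By edgeR's quasi-likelihood test Hoxa9 was lower in old KO than in old WT (log2 fold change -1.63 ± 0.25 SE, adjusted p = 0.00235). The difference of young KO from young WT did not pass the threshold (-0.67 ± 0.24, adjusted p = 0.0671). The 8 satellite cell markers summed to between 3643 and 5112 CPM and none was at 0 in any library. Some libraries stood apart. Old KO libraries 2 and 3 held 235 and 298 CPM of reads from 4 Y-linked genes, against 9.46 CPM or less elsewhere, so that group mixed sexes. Reads outside genes were most frequent in old KO library 3 (70.8%) and old WT library 2 (57.1%), against 32.2% to 52.5% in the others. Choroid plexus markers summed to 9.64 to 25.1 CPM over the 6 KO libraries and to 108 to 6008 CPM over the 6 WT libraries, with Ttr at 0 in every KO library. Macrophage markers summed to 16.7 to 71.5 CPM in old KO, 17.6 to 133 CPM in young KO, 111 to 118 CPM in old WT and 20.2 to 37.2 CPM in young WT. Across genes, the level relative to the gene's mean had a Spearman correlation with GC content of -0.523 to -0.124 in the KO libraries and of 0.225 to 0.469 in the WT libraries, a description in which genes are not replicates. Mfap2 and Eln, with 59.6% and 58.8% GC, lie at the 94.7 and 92.7 percentile of GC content.

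Per kilobase of exon, Fbn1 had the highest mean over the 12 libraries, while Mfap4 was above it in young WT (61.9 against 50.8 CPM per kb for Fbn1) and, by library, in all 3 young WT libraries and old WT library 2. Over the 12 libraries Fbn1 averaged 46.1 CPM per kb, above 93.1% of the genes tested, and Mfap4 averaged 32.6 CPM per kb, above 89%. Fbln2 and Efemp2 followed at 15.9 and 15 CPM per kb, and Fbln1 at 4.62 CPM per kb was near the middle of all genes. Mfap2, Eln, Fbn2, Mfap5 and Fbln5 lay between 2.27 and 0.902 CPM per kb over the 12 libraries, and Eln and Mfap2 reached 4.45 and 4.31 CPM per kb in young WT, beside 5.10 CPM per kb for Fbln1. Of all reads on the 10 genes, 65% fell on Fbn1. The summed level of the 10 genes was 849 ± 119 CPM in old KO, 956 ± 113 CPM in young KO, 580 ± 46.9 CPM in old WT and 1021 ± 247 CPM in young WT (SD, n = 3).

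**Figure D1:**
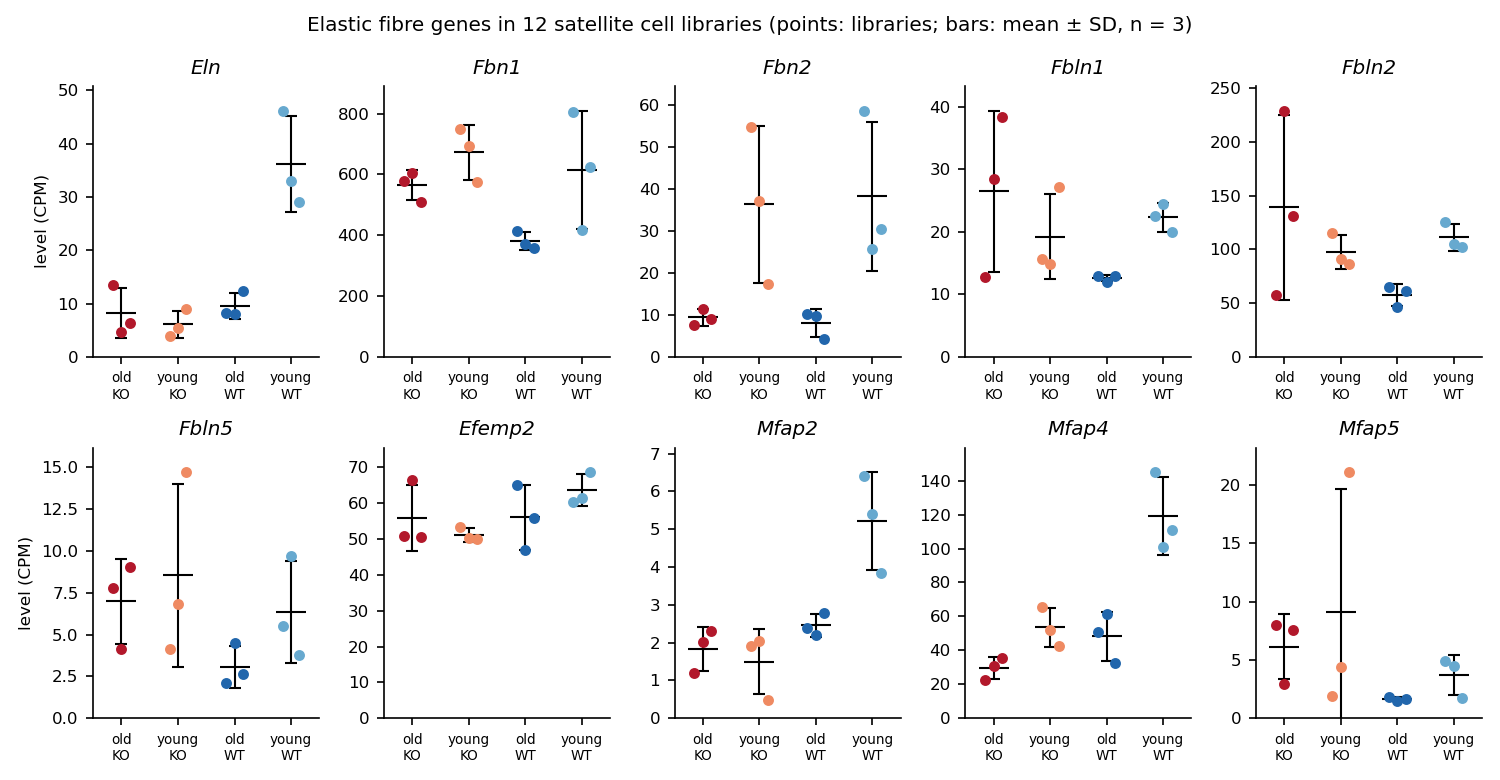
Level of each of the 10 genes (CPM, linear axis from 0) in old KO, young KO, old WT and young WT. Points are libraries and bars are mean ± SD (n = 3; a bar that would pass below 0 stops there). Eln stood at 29.1 to 46.2 CPM in young WT and at 3.90 to 13.5 CPM over the other 9 libraries.

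Young WT stood apart from the other groups for elastin and its associated glycoprotein Mfap4, and the old groups stood apart from the young ones for Fbn2. With age in wild type, 2 of the 10 genes were lower past the threshold (Eln and Mfap4) and 0 were higher, where edgeR's quasi-likelihood test called 0.805% of all genes lower and 0.258% higher. DESeq2 called 4 lower and 0 higher, beside 299 lower and 163 higher over all 13540 genes. At an unadjusted p under 0.05 the counts were 7 lower and 0 higher, beside 1002 lower and 916 higher over all genes. All 10 fold changes were negative, with a median log2 fold change of -1.06, beside a median of 0.01 and 6649 negative values among the 13540 genes tested. In young KO against young WT, 3 of the 10 genes were lower (Eln, Mfap2 and Mfap4) and 0 higher. Of all genes 10% were lower and 10.9% higher. DESeq2 and the unadjusted p gave the same counts for the 10 genes. Over all genes DESeq2 called 1390 lower and 1945 higher, and the unadjusted p gave 2416 lower and 2424 higher. The median there was -0.21 over the 10 genes and -0.02 over all genes. In old KO against old WT, 2 of the 10 genes were higher (Fbln1 and Fbln2) and 0 lower, against 9.52% higher and 7.21% lower of all genes, with medians of 0.40 and -0.01. DESeq2 called 4 higher and 1 lower, beside 1505 higher and 1240 lower over all genes. An unadjusted p under 0.05 was reached by 5 higher and 1 lower, beside 2280 higher and 2177 lower over all genes. Scaling by library size alone moved the median of all genes in that comparison to -0.26 and gave 359 higher and 1827 lower calls over all genes, beside 1289 higher and 976 lower with trimmed-mean factors. The median of the 10 genes was then 0.16, and all values given here are relative to the trimmed-mean scaling.

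With age in knockout, edgeR's quasi-likelihood test called 0 of the 10 genes in either direction, against 0.0148% of all genes higher and 0% lower. At an unadjusted p under 0.05 it named 2 genes as lower, Fbn2 and Mfap4, beside 734 higher and 582 lower over all genes. DESeq2 called 1 gene, Fbn2, beside 66 higher and 70 lower over all genes. The interaction, the age difference in KO minus that in WT, likewise called 0 of the 10, against 0.00739% higher and 0.00739% lower of all genes. There 3 genes, Eln, Fbln1 and Fbln2, had an unadjusted p under 0.05, all positive, beside 672 higher and 644 lower over all genes. DESeq2 called 1, Eln, beside 27 higher and 31 lower over all genes. The quasi-likelihood test thus did not show the age difference in KO to differ from that in WT for any of the 10 genes. The age comparison in wild type and the KO comparison in young mice share the young WT libraries, and the age comparison in wild type and the KO comparison in old mice share the old WT libraries, so their values are given side by side without further reading. Because the genes were chosen with these levels in view, nothing is read from how these counts compare with the shares of all genes.

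**Figure D2:**
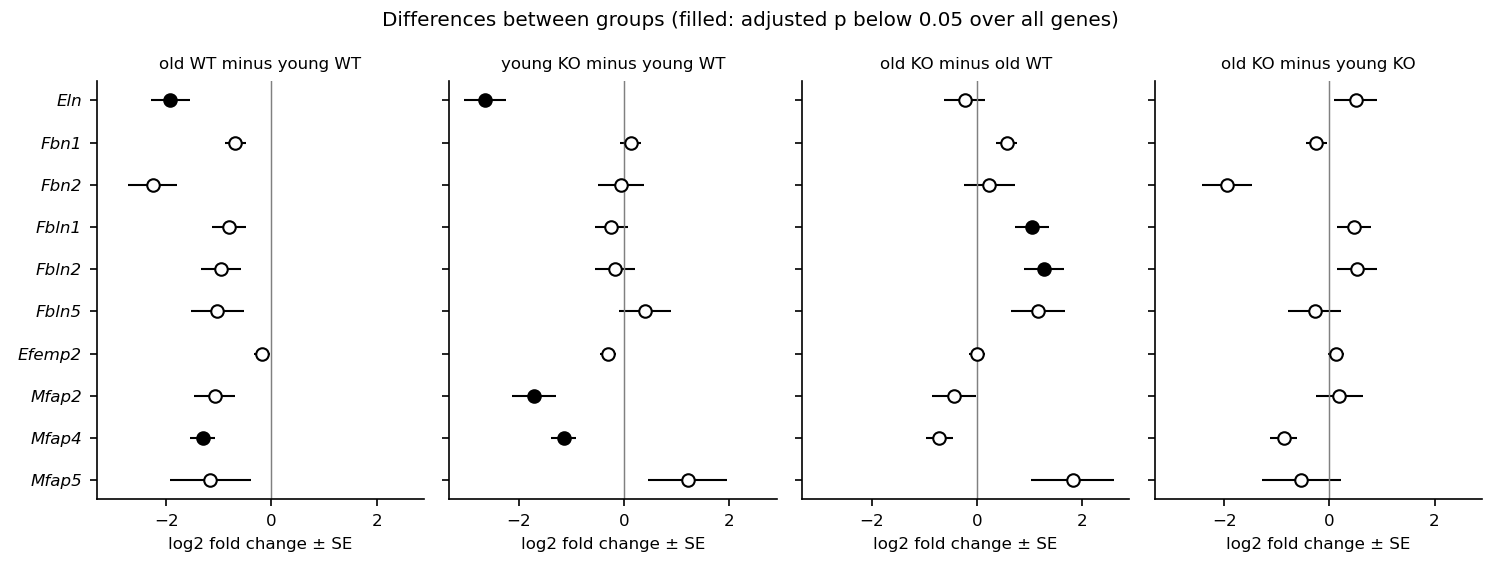
Log2 fold change ± SE of the 10 genes in 4 comparisons, from the quasi-likelihood fit over 12 libraries. Filled points have an adjusted p below 0.05 over all 13540 genes: Eln and Mfap4 for old against young WT, Eln, Mfap2 and Mfap4 for young KO against young WT, Fbln1 and Fbln2 for old KO against old WT, and none for old against young KO.

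Elastin, the core of the fibre, was highest in the young WT libraries. Eln had 13.5, 4.75 and 6.39 CPM in old KO, 3.90, 5.39 and 8.94 CPM in young KO, 8.31, 7.95 and 12.4 CPM in old WT, and 46.2, 32.9 and 29.1 CPM in young WT. Each young WT library was above all 9 libraries of the other groups, which overlapped each other. Young KO was 6.25-fold lower than young WT, with means of 6.08 ± 2.59 and 36.1 ± 9 CPM (SD, n = 3; log2 fold change -2.64 ± 0.40 SE; edgeR adjusted p = 0.00147). That call held under all 21 alternatives, with values between -2.94 and -2.22. Old WT was 3.77-fold lower than young WT, with means of 9.55 ± 2.47 and 36.1 ± 9 CPM (-1.92 ± 0.37, adjusted p = 0.0313). The direction held under all 21 alternatives and the call under 12. The adjusted p was 0.139, 0.158 and 0.0985 without old WT library 1, 2 or 3, 0.144, 0.0738 and 0.0678 without young WT library 1, 2 or 3, 0.0502 without young KO library 2, and 0.226 without the pair of libraries richest in reads outside genes. Old KO did not differ from old WT past the threshold (-0.23 ± 0.39, adjusted p = 0.71) nor from young KO (0.50 ± 0.41, adjusted p = 0.745), and the sign of both values changed under some alternatives. The interaction was 2.41 ± 0.55 with an adjusted p of 0.289.

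In these bulk libraries fewer cells of a type and less RNA per cell cannot be told apart. The 10 fibroblast markers summed to 3532 to 4455 CPM in old KO, 3498 to 4346 CPM in young KO, 2711 to 3189 CPM in old WT and 5215 to 6133 CPM in young WT, so they too were highest in every young WT library. Most of that sum was Col3a1 and Col1a1, at 4163 and 1371 CPM on average in young WT. The sum of the 8 satellite cell markers was likewise highest in every young WT library. It was 3827 to 3997 CPM in old KO, 3643 to 4214 CPM in young KO, 4097 to 4296 CPM in old WT and 4541 to 5112 CPM in young WT. Of these 8, 1 was lower in old than in young WT, and 3 were lower in young KO than in young WT, with 0 higher in either. The defining fibroblast marker Pdgfra stood at 5.29 to 9.88 CPM in old KO, 2.24 to 4.97 CPM in young KO, 2.18 to 8.25 CPM in old WT and 3.61 to 5.09 CPM in young WT, with no group apart. Of 9 fibroblast markers tested, 3 were lower in old than in young WT (Col1a1, Col3a1 and Cd248), and in young KO against young WT 2 were lower (Col1a1 and Cd248) and 1 higher (Dpp4). Pi16 was at 0 in 1 library and Clec3b at 0 in 2. Pericyte and smooth muscle markers summed to 3319 to 3927 CPM in old KO, 2912 to 4062 CPM in young KO, 2982 to 3088 CPM in old WT and 3789 to 4609 CPM in young WT, with none at 0. The part of these cells, of the choroid plexus signal in the WT libraries and of GC content in the differences was not tested, apart from the fit with offsets for GC content and length.

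The fibrillins, which polymerise into the microfibrils, differed from each other. Fbn1, the main fibrillin of adult tissue, had 580, 605 and 510 CPM in old KO, 751, 694 and 575 CPM in young KO, 415, 371 and 358 CPM in old WT, and 805, 418 and 625 CPM in young WT. Old WT was the lowest group and did not overlap any other, though its highest library at 415 CPM was next to a young WT library at 418 CPM. Neither the difference of old WT from young WT (-0.69 ± 0.20, adjusted p = 0.115) nor that of old KO from old WT (0.57 ± 0.20, adjusted p = 0.0648) passed the threshold in edgeR, and DESeq2 called both (adjusted p = 0.0392 and 0.0455). Offsets for GC content and length brought the KO difference to 0.76 with an adjusted p of 0.0325. Young KO and young WT overlapped (0.13 ± 0.20, adjusted p = 0.678).

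Fbn2, the fibrillin best known from embryonic and newborn tissue, separated the old libraries from the young ones. It had 7.66, 11.5 and 9.01 CPM in old KO, 54.7, 37.2 and 17.4 CPM in young KO, 10.3, 9.64 and 4.36 CPM in old WT, and 58.7, 25.8 and 30.5 CPM in young WT. All 6 old libraries were below all 6 young libraries, while KO and WT overlapped at each age. The mean was 9.39 ± 1.95 CPM in old KO and 36.4 ± 18.7 CPM in young KO, and 8.11 ± 3.27 CPM in old WT and 38.3 ± 17.8 CPM in young WT (SD, n = 3). The age difference was -1.95 ± 0.48 in KO (adjusted p = 0.224) and -2.26 ± 0.46 in WT (adjusted p = 0.0512), both outside the threshold in edgeR. DESeq2 placed the WT difference inside it (adjusted p = 3.02e-05). The quasi-likelihood test also did so without young KO library 1 or 3 (0.0295 and 0.0142), with only the WT libraries in the fit (0.0266) and with offsets for GC content and length (0.0494). The KO difference was 0.24 ± 0.48 in old mice and -0.06 ± 0.44 in young mice, with adjusted p of 0.763 and 0.938.

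The small microfibril-associated glycoproteins Mfap2 and Mfap5, also known as MAGP-1 and MAGP-2, bind fibrillin. Over the 12 libraries Mfap2 had the lowest mean of the 10 genes, 2.75 CPM. Mfap5 was lower as a group mean in old WT (1.66 against 2.46 CPM) and young WT (3.73 against 5.22 CPM). Mfap2 had 2 to 132 reads per library, so its counting error is large. It had 1.20, 2.01 and 2.32 CPM in old KO, 1.91, 2.05 and 0.497 CPM in young KO, 2.40, 2.19 and 2.79 CPM in old WT, and 6.40, 5.40 and 3.85 CPM in young WT. As for Eln, all 3 young WT libraries were above the other 9. Young KO was 3.26-fold lower than young WT (-1.71 ± 0.42, adjusted p = 0.0122), a call kept without any 1 library and lost with offsets for GC content and length (-1.17, adjusted p = 0.113). Old WT against young WT gave -1.08 ± 0.39 (adjusted p = 0.209) and old KO against old WT gave -0.44 ± 0.42 (adjusted p = 0.501).

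Mfap5 showed a different pattern, with single libraries far above the rest. It had 7.96, 2.94 and 7.55 CPM in old KO, 1.91, 4.36 and 21.1 CPM in young KO, 1.85, 1.49 and 1.63 CPM in old WT, and 4.95, 4.47 and 1.76 CPM in young WT. Every old KO library was above every old WT library, but the difference did not pass the threshold in edgeR (1.83 ± 0.79, adjusted p = 0.13). It passed in 3 of 21 alternatives, among them DESeq2 (1.86, adjusted p = 0.0373) and the fit with only the old libraries (1.82, adjusted p = 0.0141). The young KO difference of 1.21 ± 0.75 from young WT (adjusted p = 0.278) rested on young KO library 3, without which it was -0.24. Schwann and neural markers summed to 80.5, 117 and 640 CPM in young KO libraries 1, 2 and 3. They summed to 315, 155 and 285 CPM in old KO libraries 1, 2 and 3. The sums were 161 to 166 CPM in old WT and 163 to 286 CPM in young WT. Young KO library 3 was also the shallowest library, with 4193433 reads in genes. Its endothelial markers summed to 73.8 CPM (42.5 and 45.8 CPM in young KO libraries 1 and 2). Its pericyte and smooth muscle markers summed to 4062 CPM (2986 and 2912 CPM), and its fibroblast markers to 3498 CPM (4013 and 4346 CPM). The part of any of these cells or of depth in the levels of Mfap5 and Fbln5 was not tested.

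Mfap4, a fibrinogen-related glycoprotein that binds elastin and fibrillin-1, had the second highest mean per kilobase over the 12 libraries and the highest in young WT. It had 22.5, 30.8 and 35.7 CPM in old KO, 65.7, 52.2 and 42.5 CPM in young KO, 50.6, 61.5 and 32.5 CPM in old WT, and 145, 101 and 111 CPM in young WT. Young WT was highest without overlap, old KO lowest with 1 library above the lowest old WT library, and young KO and old WT were mixed between them. Young KO was 2.21-fold lower than young WT, with means of 53.5 ± 11.7 and 119 ± 23.1 CPM (SD, n = 3; -1.15 ± 0.24, adjusted p = 0.00673). The call held without any 1 library and was lost with GC and length offsets (-0.85, adjusted p = 0.0755). Old WT was 2.48-fold lower than young WT, with means of 48.2 ± 14.7 and 119 ± 23.1 CPM (-1.31 ± 0.24, adjusted p = 0.0271). That call was lost without old WT library 1 or 3 (0.0995 and 0.115), without young WT library 1 or 3 (0.131 and 0.0701) and without the pair of libraries richest in reads outside genes (0.0822). Old KO against old WT gave -0.71 ± 0.25 (adjusted p = 0.0692), a value that passed the threshold by DESeq2 (0.0395), with scaling by library size alone (-0.97, 0.0183) and without old WT library 3 (-0.92, 0.0314). Old KO against young KO gave -0.87 ± 0.25 (adjusted p = 0.269), and the groups did not overlap.

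**Figure D3:**
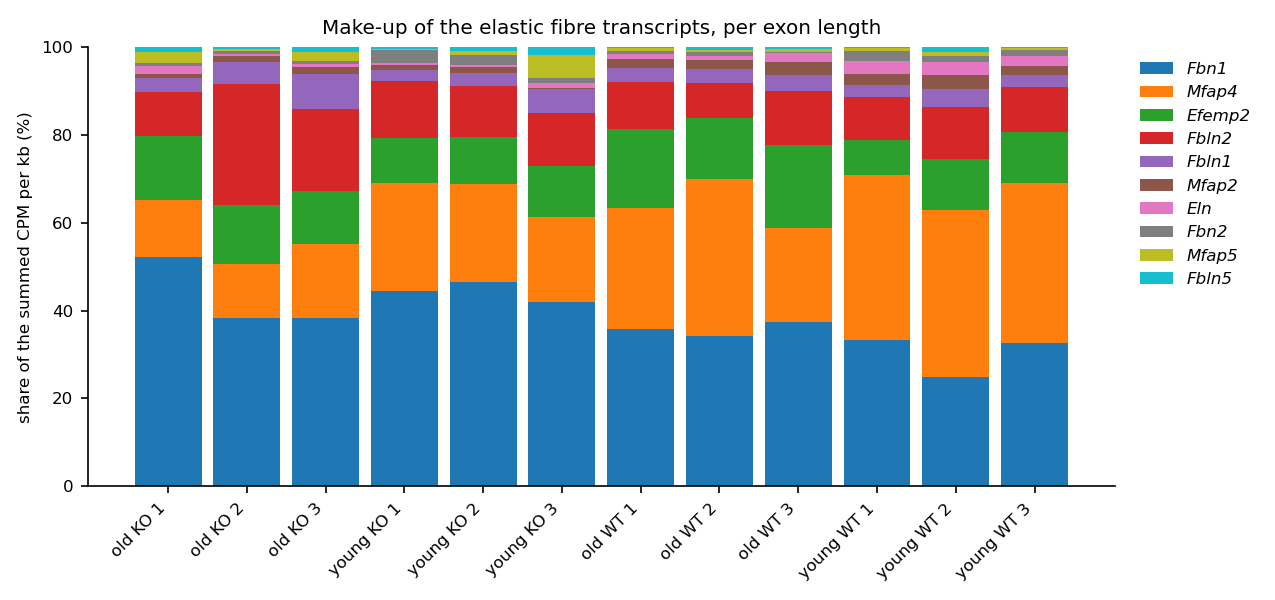
Share (%) of each of the 10 genes in their summed level per kilobase of exon, 1 bar per library, in the order old KO, young KO, old WT and young WT. Mfap4 held 36.5% to 37.9% in young WT and 12.3% to 16.9% in old KO.

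The make-up of the set per kilobase is given as shares of the summed level. Mfap4 held 14 ± 2.52% of the summed level in old KO, 22.1 ± 2.55% in young KO, 28.2 ± 7.17% in old WT and 37.4 ± 0.757% in young WT (SD, n = 3). Fbn1 held 42.9 ± 8.14% in old KO, 44.3 ± 2.35% in young KO, 35.8 ± 1.60% in old WT and 30.2 ± 4.63% in young WT. All KO libraries had a larger Fbn1 share and a smaller Mfap4 share than all young WT libraries. Eln held 0.999 ± 0.732% in old KO, 0.621 ± 0.323% in young KO, 1.37 ± 0.494% in old WT and 2.68 ± 0.360% in young WT. A share falls when another gene rises, so these values are a description of proportions.

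Fbln1 and Fbln2, large calcium-binding fibulins found in elastic fibres and basement membranes, were higher in old KO than in old WT, and old KO libraries 2 and 3 carried that difference. Fbln1 had 12.8, 28.4 and 38.4 CPM in old KO, 15.7, 14.9 and 27.1 CPM in young KO, 13.0, 12 and 12.9 CPM in old WT, and 22.6, 24.4 and 19.9 CPM in young WT. Fbln2 had 57.5, 229 and 131 CPM in old KO, 115, 91.1 and 86.0 CPM in young KO, 64.8, 45.9 and 61.6 CPM in old WT, and 125, 105 and 102 CPM in young WT. For both genes old KO libraries 2 and 3 were far above old WT and old KO library 1 lay within the old WT range. The fold change was 2.07-fold for Fbln1, with means of 26.5 ± 12.9 and 12.6 ± 0.541 CPM (SD, n = 3; log2 1.05 ± 0.32, adjusted p = 0.0429). It was 2.43-fold for Fbln2, with means of 139 ± 86.2 and 57.4 ± 10.1 CPM (1.28 ± 0.38, adjusted p = 0.0446).

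Both adjusted p lay just under the threshold. Without old KO libraries 2 and 3, those with male levels of Y-linked reads, 1 library remained in the group, assumed to vary like the other groups, and the log2 fold changes were 0.02 for Fbln1 and 0.01 for Fbln2. Both calls held with offsets for GC content and length (1.33 and 1.65, adjusted p = 0.0212 and 0.0393). The Fbln1 call held in 4 of 12 fits that left out 1 library and the Fbln2 call in 1 of 12. Without old KO library 1, 2 or 3 Fbln1 gave 1.40, 0.97 and 0.75 (adjusted p = 0.0049, 0.109 and 0.154), and Fbln2 gave 1.68, 0.70 and 1.35 (adjusted p = 0.00285, 0.129 and 0.101). Leaving out old WT library 1, 2 or 3 gave adjusted p of 0.109, 0.12 and 0.1 for Fbln1 and 0.0969, 0.139 and 0.0975 for Fbln2, and leaving out a young WT library gave 0.0573 to 0.0586 for Fbln1 and 0.0608 to 0.0633 for Fbln2. Leaving out young KO library 1, 2 or 3 gave 0.0512, 0.0631 and 0.0563 for Fbln2. The calls were also lost with scaling by library size alone (0.0774 and 0.103), with only the old libraries in the fit (0.0638 and 0.136) and without the pair of libraries richest in reads outside genes (0.31 and 0.232), and the call of Fbln2 without a filter on low counts (0.112). The 8 tendon markers summed to 113, 463 and 1201 CPM in old KO libraries 1, 2 and 3 and to 40.2 to 55.6 CPM in old WT. Of them 6 of 8 were higher in old KO (Tnmd, Kera, Fmod, Thbs4, Comp and Angptl7). In young KO the 8 markers summed to 223 to 393 CPM, against 93.2 to 194 CPM in young WT. There 1 of the 8 was higher and 1 lower past the threshold, beside 10.9% of all genes higher and 10% lower. Neither fibulin differed past the threshold between those young groups. Of the pericyte markers 3 of 10 were higher in old KO too (Kcnj8, Abcc9 and Cspg4). Kera was at 0 in 1 old WT library, and Scx, the defining transcription factor of tendon cells, had 16.7 to 28.0 CPM in old KO and 16.8 to 28.5 CPM in old WT. Scx had 8.94 to 17.8 CPM in young KO and 24.5 to 25.7 CPM in young WT, without overlap. The part of tendon cells and of sex in these differences was not tested.

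No other difference of these 2 fibulins passed the threshold. Every old WT library was below every young WT library for both genes, with log2 fold changes of -0.81 ± 0.32 for Fbln1 and -0.95 ± 0.38 for Fbln2 (adjusted p = 0.253 and 0.279). With only the WT libraries in the fit both passed (adjusted p = 0.00701 and 0.00241). Young KO and young WT overlapped for Fbln1 (-0.24 ± 0.32, adjusted p = 0.628) and for Fbln2 (-0.18 ± 0.38, adjusted p = 0.764).

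Across the 12 libraries Fbln1 and Fbln2 had the closest profiles of the 45 pairs among the 10 genes, with a root mean square difference of 0.392 between their centred log2 levels. The next pairs were Fbn1 with Efemp2 (0.406) and Fbn1 with Fbln2 (0.503), and the farthest was Mfap2 with Mfap5 (1.71). Their promoters are shown because these genes varied together, next to that of Mfap2, whose level set young WT apart. The RefSeq table of promoters (GRCm38.p6, from 250 bases before to 50 after the first listed start, on the gene's strand) matched 6 of the 10 genes (Fbn1, Fbln1, Fbln2, Fbln5, Efemp2 and Mfap2). Capitals mark GC boxes (GGGCGG on either strand).
Fbln1, chr15:85205699-85205998, plus strand: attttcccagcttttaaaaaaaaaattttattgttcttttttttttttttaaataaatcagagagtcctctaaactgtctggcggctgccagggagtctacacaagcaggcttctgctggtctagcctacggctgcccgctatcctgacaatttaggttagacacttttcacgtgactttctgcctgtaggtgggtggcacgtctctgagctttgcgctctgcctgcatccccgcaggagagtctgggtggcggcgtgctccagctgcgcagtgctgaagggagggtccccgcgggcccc
Fbln2, chr6:91212514-91212813, plus strand: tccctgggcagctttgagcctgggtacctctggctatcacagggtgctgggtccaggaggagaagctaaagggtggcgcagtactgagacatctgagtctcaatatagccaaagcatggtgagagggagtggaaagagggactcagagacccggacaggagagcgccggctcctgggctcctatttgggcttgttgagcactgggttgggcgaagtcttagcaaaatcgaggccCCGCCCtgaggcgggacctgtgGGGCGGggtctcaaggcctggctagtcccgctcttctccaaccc
Mfap2, chr4:141010431-141010730, plus strand: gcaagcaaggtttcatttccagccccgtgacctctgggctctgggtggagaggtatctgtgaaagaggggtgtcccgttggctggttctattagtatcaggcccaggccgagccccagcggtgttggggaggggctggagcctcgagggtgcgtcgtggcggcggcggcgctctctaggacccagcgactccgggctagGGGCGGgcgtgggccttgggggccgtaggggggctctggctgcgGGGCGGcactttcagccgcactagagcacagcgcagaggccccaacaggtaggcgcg
The Fbln1 window held 0 GC boxes and 2 E-boxes (CANNTG, the letters bound by MyoD and related factors), that of Fbln2 2 GC boxes and 1 E-box, and that of Mfap2 2 GC boxes and 0 E-boxes. GC boxes occurred in 35.9% and E-boxes in 72.1% of 27025 promoters of the same length. No AP-1 site (TGACTCA) or TATA box (TATAAA) was found in the 6 windows, and these occurred in 5.17% and 14.2% of promoters. Each motif was searched on both strands and counted on its own, so that matches of different motifs could overlap. A match or its lack describes only the letters of these windows.

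The fibulins that guide elastin assembly, Fbln5 and Efemp2, showed no difference past the threshold. Fbln5, fibulin-5, which tethers tropoelastin to microfibrils and binds integrins, had 7.81, 4.15 and 9.01 CPM in old KO, 4.14, 6.80 and 14.7 CPM in young KO, 2.09, 4.47 and 2.66 CPM in old WT, and 5.53, 9.72 and 3.77 CPM in young WT. The groups overlapped throughout, on 31 to 114 reads per library. Old KO against old WT gave 1.16 ± 0.51 (adjusted p = 0.132) and old WT against young WT gave -1.03 ± 0.50 (adjusted p = 0.375).

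Efemp2, fibulin-4, which brings lysyl oxidase to tropoelastin, was the steadiest of the 10 genes. It had 50.8, 66.5 and 50.6 CPM in old KO, 53.4, 50.3 and 49.9 CPM in young KO, 65.2, 47.1 and 56.0 CPM in old WT, and 60.5, 61.6 and 68.7 CPM in young WT. Its SE was 0.15 in each comparison of 2 groups, the smallest of the set, and its fold changes lay between -0.31 (young KO against young WT, adjusted p = 0.153) and 0.13 (old against young KO, adjusted p = 0.815). Every young KO library was nonetheless below every young WT library. The value for old KO against old WT was 0.00, with either sign depending on the scaling.

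**Figure D4:**
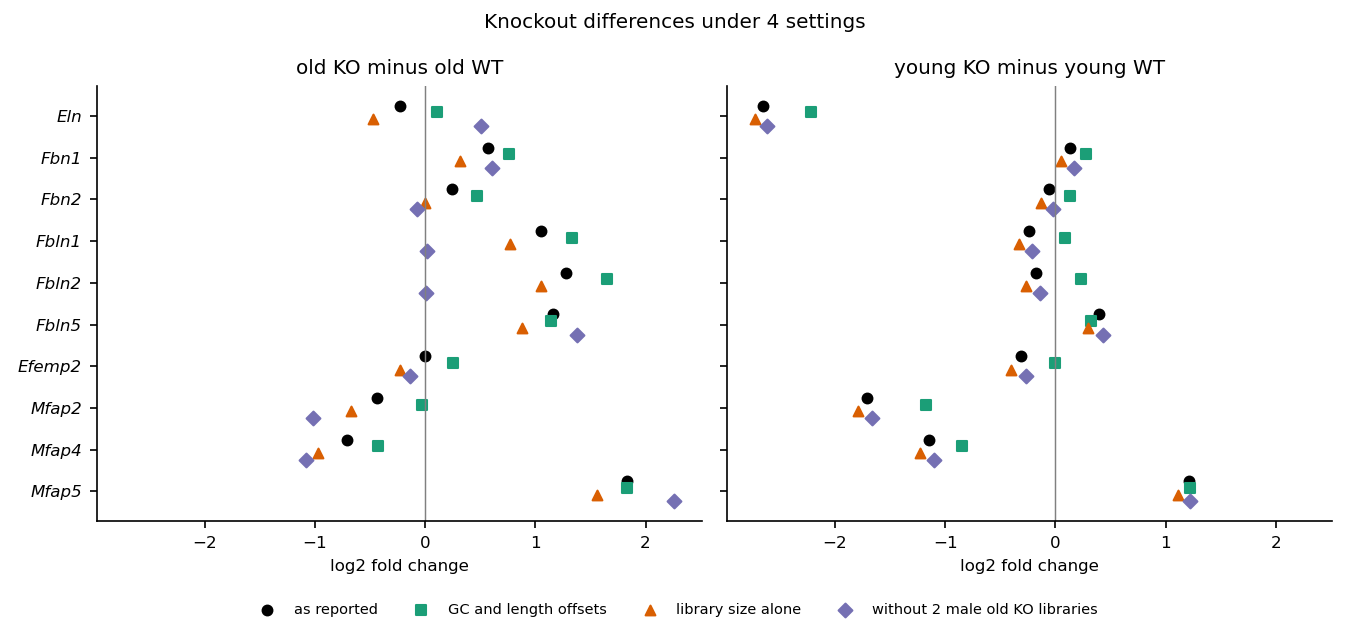
Log2 fold change of the 10 genes for old KO minus old WT (left) and young KO minus young WT (right) as reported, with offsets for GC content and length, with scaling by library size alone, and without the 2 male old KO libraries. Eln in young mice stays between -2.73 and -2.22, while Fbln1 and Fbln2 in old mice drop to 0.02 and 0.01 without the 2 male libraries.

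The genes whose profile over the 12 libraries was nearest to a member, measured by the root mean square difference of centred log2 levels and searched where the mean log2 CPM passed 1, were these. For Eln they were Zcchc5 (0.545), Cd248 (0.583) and Cox4i2 (0.637). Cd248, the fibroblast and pericyte marker endosialin, was itself lower in old WT (-2.16 ± 0.40, adjusted p = 0.0282) and in young KO (-1.73 ± 0.41, adjusted p = 0.0116) than in young WT. For Fbn1 they were Pxdn (0.127), a matrix peroxidase that cross-links basement membrane collagen, Glg1 (0.171) and Dock1 (0.173). For Fbln5 they were Cyp4b1 (0.301), Gpr155 (0.323) and Slco2b1 (0.334), and for Mfap5 Ebf2 (0.26), Tnfaip6 (0.272) and Kank4 (0.351). The distance for Eln was the largest of these 4 genes, so its neighbours were the least alike.

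Of 43 partner genes of elastic fibres listed by role, 40 were tested; Adamts10 and Elane had too few reads and Hmcn2 was not analysed here. With age in wild type, 2 were lower (Loxl2 and Mmp2) and 0 higher. That was beside 0.805% of all genes lower and 0.258% higher. DESeq2 called 5 lower and 0 higher, beside 299 lower and 163 higher over all genes. In old KO against old WT, 8 of the 40 were higher and 3 lower, beside 9.52% of all genes higher and 7.21% lower. DESeq2 called 10 higher and 3 lower, beside 1505 higher and 1240 lower over all genes. In young KO against young WT, 2 of the 40 were higher and 3 lower, beside 10.9% of all genes higher and 10% lower. DESeq2 called 6 higher and 4 lower, beside 1945 higher and 1390 lower over all genes. With age in knockout edgeR called 0 and DESeq2 1 lower, where DESeq2 called 66 higher and 70 lower over all genes. The unadjusted p was under 0.05 for 3 higher and 1 lower, beside 734 higher and 582 lower over all genes. For the interaction edgeR called 0 and DESeq2 1 higher, where DESeq2 called 27 higher and 31 lower over all genes. The unadjusted p was under 0.05 for 8 higher and 2 lower, beside 672 higher and 644 lower over all genes. The medians of the 40 log2 fold changes were -0.21 for old against young WT, 0.27 for old KO against old WT and 0.13 for young KO against young WT, beside 0.01, -0.01 and -0.02 over all genes.

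Among the enzymes that cross-link elastin, the lysyl oxidase Lox averaged 276 ± 88 CPM in old KO and 159 ± 20.2 CPM in old WT (SD, n = 3; 0.80 ± 0.25, adjusted p = 0.0471), a call kept in 4 of 21 alternatives. Loxl2 averaged 99.6 ± 23.4 CPM in old KO and 58.0 ± 10.9 CPM in old WT (0.78 ± 0.20, adjusted p = 0.0193), and with age it was lower at 58.0 ± 10.9 CPM in old WT against 118 ± 23.5 CPM in young WT (-1.03 ± 0.20, adjusted p = 0.0271). The age call held in 13 of 21 alternatives. It was lost without old WT library 1, 2 or 3 and without young WT library 1 or 3. It was also lost without the pair of libraries richest in reads outside genes. Atp7a, the transporter that supplies lysyl oxidases with copper, was higher in KO at both ages (0.50 in old and 0.58 in young mice, adjusted p = 0.0237 and 0.00917), and both calls were lost with offsets for GC content and length (0.36 and 0.33, adjusted p = 0.0637 and 0.0887). Loxl1, which is tied to elastin renewal in mice, was the most abundant of the family at 469 ± 86.2 CPM in old KO, 440 ± 108 CPM in young KO, 346 ± 30.2 CPM in old WT and 597 ± 38.6 CPM in young WT, with no difference past the threshold.

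Latent TGF-beta binding proteins moved in both directions. Ltbp2, which binds fibrillin-1, was higher in old KO (29.1 ± 14.5 CPM, against 10.2 ± 2.43 CPM in old WT; 1.52 ± 0.36, adjusted p = 0.0151). Ltbp3 was lower in KO at both ages (-0.70 in old and -0.75 in young mice, adjusted p = 0.0266 and 0.0152), and both calls were lost with offsets for GC content and length (-0.33 and -0.36, adjusted p = 0.222 and 0.2). Tgfb1, a TGF-beta ligand, was lower in old KO (32.6 ± 0.804 CPM, against 51.5 ± 0.168 CPM in old WT, -0.66, adjusted p = 0.0357). That call was lost with the same offsets (-0.45, adjusted p = 0.148).

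Of the 3 proteoglycans of the fibre surface listed, Dcn and Bgn passed the threshold and Vcan, versican, did not, with adjusted p of 0.362 in old and 0.672 in young mice. Dcn, decorin, averaged 305 ± 213 CPM in old KO and 19.8 ± 2.01 CPM in old WT (3.93 ± 0.77, adjusted p = 0.0108), and 193 ± 191 CPM in young KO and 38.4 ± 2.97 CPM in young WT (2.31 ± 0.72, adjusted p = 0.0482). The first call held in 19 of 21 alternatives and the second in 4. The tendon markers summed to 113 to 1201 CPM in old KO and 40.2 to 55.6 CPM in old WT. In young KO they summed to 223 to 393 CPM, and in young WT to 93.2 to 194 CPM, with 1 marker called higher and 1 lower. Their part in the Dcn difference was not tested. Bgn, biglycan, was lower in young KO, at 499 ± 173 CPM against 1258 ± 227 CPM in young WT (-1.33 ± 0.28, adjusted p = 0.00601, kept in all 21). Of the proteases that can cut elastin, Mmp2 was lower in old than in young WT (64.4 ± 7.66 against 148 ± 21.8 CPM; -1.20, adjusted p = 0.0299). That call held in 15 of 21 alternatives. It was lost without old WT library 1, 2 or 3, without young WT library 1 or 3, and without the pair richest in reads outside genes. Mmp2 (0.97, adjusted p = 0.0165) and Ctsk, cathepsin K (1.54, adjusted p = 0.0285), were higher in old KO than in old WT.

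Of the integrin chains that bind these matrix proteins, Itgb1 was higher in old KO (0.70, adjusted p = 0.00671). Itga5, which pairs with it as a fibronectin receptor, was lower in KO at both ages (-0.81 in old and -0.98 in young mice, adjusted p = 0.0321 and 0.0109), and both calls were lost with offsets for GC content and length (-0.45 and -0.56, adjusted p = 0.205 and 0.131). No member of the fibulin relatives, the emilins or the ADAMTS family passed the threshold in any comparison with edgeR; the most abundant of each were Hmcn1 at 20.6 to 44.9 CPM, Emilin1 at 133 to 241 CPM and Thsd4 at 104 to 143 CPM as group means. Without the 2 male old KO libraries, and without the pair richest in reads outside genes, 0 of the 40 partner genes were called in old KO against old WT, where 121 and 3 of all genes were called. The fold changes of some stayed near the values above: without the male libraries and without the other pair Dcn was 3.33 and 3.15, Itgb1 0.60 and 0.68, and Atp7a 0.66 and 0.61. Others were smaller without the male libraries, with Ltbp2 at 0.47, Mmp2 at 0.29 and Lox at 0.15, and were 1.49, 0.82 and 0.64 without the other pair. With offsets for GC content and length 6 of the 11 calls in old mice were kept, all of them higher, and 1 of the 5 in young mice, Bgn.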

How the data were processed

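Total RNA of satellite cells was sequenced after ribosomal RNA removal with a stranded kit, per the labels' protocols. The deposited values are whole-number read counts per gene symbol, 1 file per library, with no normalization. The submitters' processing notes name mm9 as the build and list TopHat, HTSeq and DESeq2. Versions, the strand setting and the handling of reads with several alignments are not given in the sources used here, so overlapping or antisense genes could share reads. The 10 genes, the lists of partner and marker genes and the alternatives were chosen with earlier results of these data known.

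From the counts, lines that name no gene were set aside (32.2% to 70.8% of uniquely aligned reads lay outside genes). Genes were filtered with filterByExpr by group, scaled by TMM, the trimmed-mean method, and fitted over all 12 libraries, 1 mean per group, by edgeR 4.0.16 and its quasi-likelihood test (robust, R 4.3.3, limma 3.58.1). Every adjusted p is a Benjamini-Hochberg value from edgeR, with a threshold of 0.05, unless DESeq2 1.42.0 is named. In the main fit it is taken over 13540 genes. In an alternative that filters the genes anew it is taken over the genes of that fit. These were 13262 with offsets for GC content and length and 20738 without a filter on low counts. SE is the log2 fold change divided by the square root of its F statistic. Exon length and GC content came from GENCODE M21 (GRCm38, not the build of the counts) and 92.2% of 22310 symbols matched. The code was tested on simulated counts. Profiles were compared on log2 CPM with a prior count of 1. All 10 genes, partner genes past the threshold (up to 3 per role and direction) and the 3 nearest profiles of 4 members were named. Same-numbered libraries of different groups did not deviate together (correlations -0.248 to 0.218, median -0.0333, 18 pairs), so the numbers were not taken to pair libraries.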

Additional observations from a re-analysis of the deposited data

How the results depend on the processing

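Over 21 alternatives, 1040 values for the 10 genes kept direction and side of the threshold in 929 cases, lost the call in 46, gained it in 27 and changed sign in 38, and the cause of each change was not tested; of 378 values for called partner genes, 122 lost the call. With size factors of DESeq2 in edgeR, Efemp2 in old KO against old WT became -0.007. Library size alone gave 83 genes for ageing in WT and 4 for the interaction, 1 of the 10 genes (Mfap4, lower) and 7 partner genes for the KO comparison in old mice with Efemp2 at -0.23, and 3 partner genes in young mice. DESeq2 called 462 genes, 4 of the 10 and 5 partners for ageing in WT, 5 of the 10 in old mice (Efemp2 -0.004), 10 partners in young mice, 136 genes, 1 of the 10 and 1 partner for ageing in KO, and 58 genes, 1 of the 10 and 1 partner for the interaction. Without a filter on low counts there were 4 partners for ageing in WT, 1 of the 10 genes in old mice, 38 genes for ageing in KO and 6 for the interaction. With only the groups compared, which gives no interaction, ageing in WT gave 913 genes, 5 of the 10 and 11 partners, the KO comparison in young mice 1536 genes, ageing in KO 0 genes, and Efemp2 in old mice -0.003. Offsets for GC content and length gave 1250 genes and 7 partners, all higher, in old mice (Eln 0.11), 922 genes, 1 of the 10 and 1 partner in young mice (Fbn2 0.13, Fbln1 0.09, Fbln2 0.23, Efemp2 0.004), and 13 genes for ageing in KO. Without the 2 male old KO libraries the KO comparison in old mice gave 121 genes, 0 of the 10 and 0 partners (Eln 0.51, Fbn2 -0.07, Efemp2 -0.14), ageing in KO 15 genes (Fbln1 -0.61, Fbln2 -0.82, Efemp2 -0.063, Mfap2 -0.47) and the interaction 0 genes (Fbn2 -0.054). Without the pair of libraries with most reads outside genes, ageing in WT gave 2 genes, 0 of the 10 and 0 partners, the KO comparison in old mice 3 genes, 0 of the 10 and 0 partners (Efemp2 -0.027), ageing in KO 1 gene and the interaction 0.

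With the replicate number as a block, ageing in WT gave 79 genes and 1 partner, the KO comparison in old mice 0 of the 10 genes, and ageing in KO 0 genes. Under that block Eln for ageing in WT had an adjusted p of 0.0501, Fbn2 0.0208, and Fbln1 and Fbln2 in old mice 0.0525 and 0.0911. Libraries of the same number correlated at a median of -0.0333 and those of different numbers at 0.0268, so this fit does not rest on a known pairing.

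Leaving out each library in turn gave 6 to 458 genes, 0 to 3 of the 10 and 0 to 5 partners for ageing in WT, 779 to 3144 genes, 0 to 3 of the 10 and 2 to 15 partners for KO in old mice, and 1479 to 3140 genes, 3 of the 10 each time and 2 to 10 partners for KO in young mice. It gave 0 to 102 genes and 0 to 1 partners for ageing in KO, and 0 to 116 genes and 0 to 1 of the 10 for the interaction. The values that changed sign ranged, for KO in old mice, from -0.81 to 0.11 for Eln, -0.066 to 0.47 for Fbn2 and -0.15 to 0.13 for Efemp2, and, for KO in young mice, from -0.088 to 0.37 for Fbn1, -0.48 to 0.39 for Fbn2, -0.15 to 0.81 for Fbln5 and -0.24 to 1.73 for Mfap5. For ageing in KO they ranged from -0.12 to 0.84 for Eln, -0.07 to 0.88 for Fbln2, -0.64 to 0.30 for Fbln5, -0.018 to 0.19 for Efemp2, -0.13 to 0.40 for Mfap2 and -1.06 to 0.94 for Mfap5, and for the interaction from -0.15 to 0.72 for Fbn2. Mfap2, Fbln5 and Mfap5 rest on as few as 2, 31 and 15 reads in a library, which limits their precision.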
